A study of Mus musculus with 9 samples.

Results

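Endothelial cells line every vessel of the kidney, from the fenestrated capillaries of the glomerulus to the peritubular capillaries and the vasa recta of the medulla. The 10 genes described here (Kdr, Flt1, Tek, Tie1, Eng, Pecam1, Cdh5, Emcn, Plvap and Ehd3) are used to recognise these cells. They were taken as a list by name, with earlier results of these data known. All 10 were among the 13081 genes of the table, and all 10 passed the filter on low values. RNA was measured in kidneys of wild-type mice, which the study's text gives as C57BL/6, at an age of 3 months (young, 4 libraries) or 16 months (old, 5 libraries). No group carried a mutation or received a treatment, and neither sex nor pooling of animals is stated in the labels. The question for the present comparison is which of the genes that mark renal endothelium differ between these ages.

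Several of these genes encode parts of 2 growth factor systems. VEGF-A, made largely by epithelial cells such as podocytes, signals to endothelium through the tyrosine kinase receptor encoded by Kdr, while the receptor encoded by Flt1 binds the same ligand tightly and limits its action. Angiopoietins signal through the receptor encoded by Tek, which forms complexes with the related orphan receptor encoded by Tie1. Endoglin (Eng) is a co-receptor for ligands of the BMP and TGF-beta family. PECAM-1 (Pecam1) and VE-cadherin (Cdh5) hold neighbouring endothelial cells together, endomucin (Emcn) is a sialomucin of the cell surface, the product of Plvap forms the diaphragms of fenestrae and caveolae, and EHD3 (Ehd3) is a membrane trafficking protein found in the kidney mainly in glomerular endothelium.

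Each library held 4486406 to 6355095 reads, recovered from the deposited table, and a member gene had between 41 and 601 reads in any library. The values below are normalised counts, that is, reads divided by the size factor of the library. A library here is a sequenced sample of kidney RNA, and because the labels do not say that libraries came from separate animals, p-values measure the spread between these libraries. Mitochondrial genes took 27.0% to 29.7% of the reads in young and 35.8% to 38.1% in old libraries, and mitochondrial rRNA alone took 2.98% to 4.46% in young and 21.8% to 25.4% in old. The titles of young and old libraries have different prefixes, so a difference in preparation cannot be told apart from age. The tissue label held, with Slc34a1, the phosphate transporter of the proximal tubule, at 18725 ± 348 in young and 19329 ± 2366 in old (SD, n = 4 and 5).

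The reads of a 3′ end library count a gene but do not show its promoter, and the sequences upstream of the start sites are given for orientation. RefSeq entries on GRCm38.p6 were found for 7 of the 10 genes. The windows reach up to 250 bases upstream of the start, leaving out bases that lie in an annotated exon, and are written on the strand of the gene. They are shown for Kdr (chr5:75978459-75978705, minus strand), Flt1 (chr5:147726012-147726261, minus strand) and Tek (chr4:94739039-94739288, plus strand), receptor genes whose levels were higher in old kidneys, and for Eng (chr2:32646345-32646594, plus strand), a co-receptor gene that did not pass the test. Capitals mark the letters AGGAAG or CCGGAA, or their reverse complements, which are cores bound by ETS family transcription factors. Factors of this family, such as Erg, Fli1 and Ets1, are active in endothelium.
Kdr: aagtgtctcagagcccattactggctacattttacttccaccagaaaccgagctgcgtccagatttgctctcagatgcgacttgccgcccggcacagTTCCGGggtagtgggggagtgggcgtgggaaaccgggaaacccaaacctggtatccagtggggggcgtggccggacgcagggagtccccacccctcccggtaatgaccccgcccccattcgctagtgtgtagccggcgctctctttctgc
Flt1: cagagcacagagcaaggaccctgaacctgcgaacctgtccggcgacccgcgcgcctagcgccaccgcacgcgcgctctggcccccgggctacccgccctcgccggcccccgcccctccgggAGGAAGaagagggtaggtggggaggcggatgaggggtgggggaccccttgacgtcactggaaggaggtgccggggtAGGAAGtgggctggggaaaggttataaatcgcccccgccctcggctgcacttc
Tek: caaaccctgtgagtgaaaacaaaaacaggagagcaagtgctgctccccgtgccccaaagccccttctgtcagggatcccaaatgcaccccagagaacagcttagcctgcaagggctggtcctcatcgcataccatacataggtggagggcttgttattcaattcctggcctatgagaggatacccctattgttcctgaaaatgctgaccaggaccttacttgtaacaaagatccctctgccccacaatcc
Eng: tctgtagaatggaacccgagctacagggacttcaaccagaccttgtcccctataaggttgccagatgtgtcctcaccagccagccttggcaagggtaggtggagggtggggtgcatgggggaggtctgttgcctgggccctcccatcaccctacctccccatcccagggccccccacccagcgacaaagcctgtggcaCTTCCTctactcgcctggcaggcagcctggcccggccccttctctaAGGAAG
CCGGAA or its reverse complement occurred 1 time in the window of Kdr, and AGGAAG or its reverse complement occurred 2 times in that of Flt1 and 2 times in that of Eng. Neither occurred in the window of Tek. Among 32851 RefSeq upstream windows, 29.5% held AGGAAG and 12.0% held CCGGAA on either strand, so such matches are common. TATAAA was found 1 time in the window of Flt1, and AACAAT, a core bound by SOX factors, 1 time in that of Tek, against 12.4% and 9.42% of all windows. The GATA-type cores AGATAA and TGATAA, present in 9.99% and 7.94% of all windows, occurred 0 times in the windows shown. A match describes letters and does not show that a factor binds there.

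Of the 10 endothelial genes, 5 were higher in old kidneys (Pecam1, Tek, Flt1, Ehd3 and Kdr), by 1.42-fold to 1.69-fold, and 0 were lower. The other 5 (Eng, Cdh5, Emcn, Plvap and Tie1) did not pass the test, with limma at an adjusted p-value under 0.05 over 12667 genes. At an unadjusted p under 0.05 the count was also 5, and edgeR and DESeq2 on the recovered reads each called 5 genes as higher and 0 as lower. The same 5 genes that were called had groups that did not overlap, each of the 5 old libraries lying above all 4 young libraries. This count has to be read against a table in which most genes differed. Among all genes tested, 59.7% were called, 29.2% as higher and 30.5% as lower in old kidneys. The ages did not overlap for 49.0% of all genes, and for 23.3% the old libraries were the higher ones. The share of the 10 genes that was called, 50%, was near that of the whole table, and the 5 calls all pointed upward. The median log2 fold change was 0.34 over the 10 genes and -0.0027 over all genes tested, with 7 of the 10 values above 0. Since these are whole kidneys, more endothelial cells and more RNA of these genes per cell cannot be told apart.

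**Figure D1:**
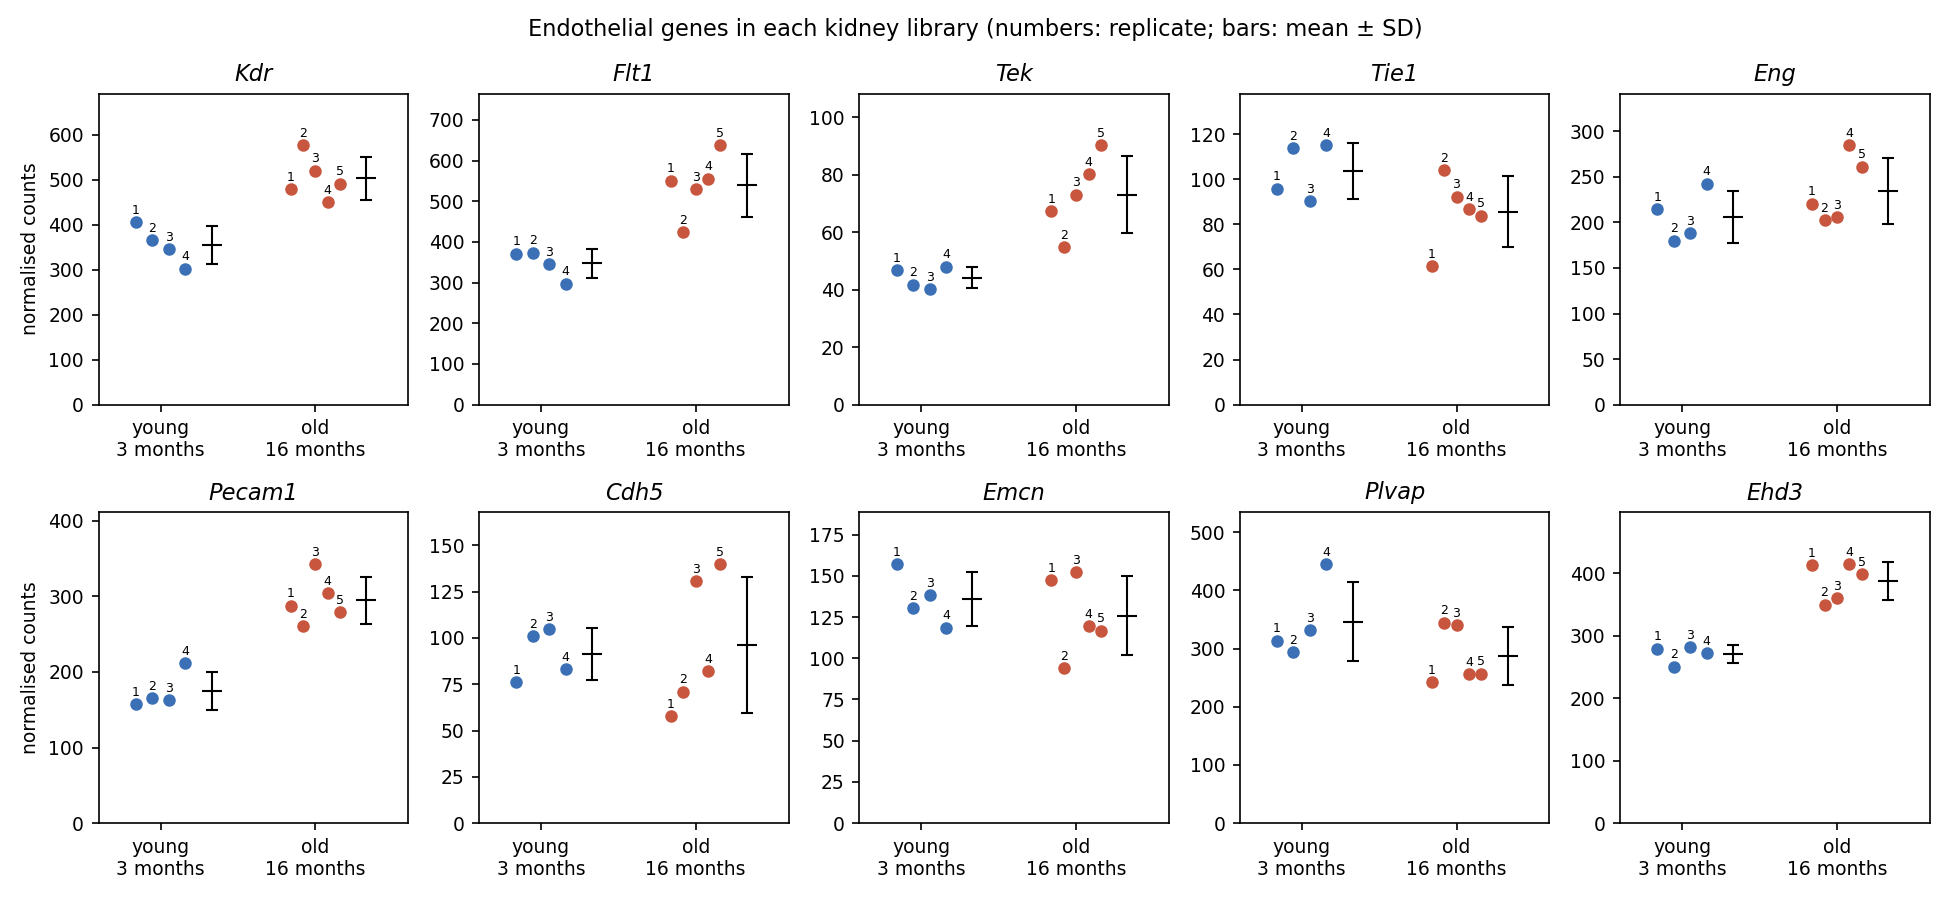
Normalised counts (vertical axis, starting at 0 in each panel) of the 10 endothelial genes in each of 4 young and 5 old kidney libraries, 1 point per library labelled with its replicate number, with bars for the mean ± SD of each age. The old points of Kdr, Flt1, Tek, Pecam1 and Ehd3 lie above all young points, while those of Tie1, Eng, Cdh5, Emcn and Plvap overlap with the young.

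The VEGF receptor genes were both higher in old kidneys. Kdr (chr5:75932827-75978458 on GRCm38) encodes the main signalling receptor for VEGF-A. Its normalised counts were 405, 365, 345 and 302 in the young libraries and 479, 576, 520.2, 449.6 and 491 in the old. The lowest old library lay above the highest young one, and the mean went from 355 ± 42.9 to 503 ± 48.2 (SD, n = 4 and 5). The fold change was 1.42, or 0.51 on the log2 scale (SE 0.11, limma adjusted p = 0.000529). When a trend with transcript length was removed from each library, the log2 fold change of Kdr was 0.25 and its adjusted p by limma was 0.0549.

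Flt1 (chr5:147561604-147726011) encodes the second receptor for VEGF-A, and also a soluble form that binds the ligand outside the cell. Its normalised counts were 371, 374, 346 and 298 in young and 550.4, 423, 529, 556 and 638 in old libraries. All old values were above the young, with means of 347 ± 35.2 and 539 ± 76.8 and a 1.54-fold difference (log2 0.63, SE 0.12, limma adjusted p = 0.000144). With the length trend removed, the log2 value of Flt1 was 0.29 and the adjusted p by limma 0.0299. The 2 annotated coding transcripts of Flt1 end 73.56 kb apart, and the table gives 1 value per gene, so the membrane and soluble forms cannot be separated. The ratio of Kdr to Flt1 within a library had a mean log2 value of 0.03 in young and -0.09 in old libraries, and this difference did not pass an exact two-sided permutation test (p = 0.524, adjusted p = 0.556 over 6 ratios).

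Tek and Tie1, the receptor genes of the angiopoietin system, went apart. Tek (chr4:94739289-94874976), which encodes the receptor Tie2, had 46.7, 41.8, 40.2 and 48.0 normalised counts in young and 67.2, 54.7, 73.0, 80.2 and 90.2 in old libraries. No old library reached down to the young range. The means were 44.2 ± 3.76 and 73.1 ± 13.4, a 1.62-fold difference (log2 0.70, SE 0.18, limma adjusted p = 0.00223). Tek had the fewest reads of the 10 genes, with 41 to 86 per library.

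Tie1 (chr4:118471191-118490061) encodes the orphan partner of Tie2. Its normalised counts were 95.8, 114, 90.2 and 115 in young and 61.3, 104, 92.3, 86.8 and 83.8 in old libraries. The ages overlapped, although 3 of the 5 old libraries lay below all young ones. The means were 104 ± 12.5 and 85.6 ± 15.6, with a log2 fold change of -0.29 (95% CI -0.62 to 0.05, limma adjusted p = 0.136). The ratio of Tek to Tie1 within a library, taken like all ratios here on normalised counts with 1 added, ran from -1.42 to -1.02 on the log2 scale in young and from -0.91 to 0.13 in old libraries. It was therefore higher in all 5 old libraries, by 0.98 on average or 1.98-fold, with an exact two-sided permutation p of 0.0159, which is the smallest that 126 splits of 9 libraries allow, and an adjusted p of 0.0476 over the 6 ratios tested. With 0.1 or 5 added in place of 1, the difference of Tek to Tie1 was 0.998 or 0.926.

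Eng (chr2:32646595-32682669), the gene of the BMP co-receptor endoglin, overlapped between ages. It had 215, 179.8, 188 and 243 normalised counts in young and 220.4, 202, 206, 285 and 261 in old libraries, so that old replicates 4 and 5 lay above all young libraries. The means were 206 ± 28.4 and 235 ± 36.2, with a log2 fold change of 0.18 (95% CI -0.09 to 0.46, limma adjusted p = 0.240). When reads of mitochondrial genes were removed before rescaling, Eng was called at 0.32 (limma adjusted p = 0.0338), and the median of all genes moved to 0.13 under that scaling. Other genes are annotated within Eng on the same strand (Gm26236, Gm47291 and Mir1954), and Fpgs overlaps it on the opposite strand, from which reads were counted apart.

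Of the junction genes, Pecam1 was higher in old kidneys and Cdh5 was not called. Pecam1 (chr11:106654217-106750628) encodes the adhesion molecule PECAM-1, also present on platelets and leukocytes, and had the highest fold change of the 10 genes with all libraries included. Its normalised counts were 157, 165, 163 and 212 in young and 288, 260.3, 343, 304 and 279 in old libraries. Young replicate 4 stood above the other young libraries but below every old one. The means were 174 ± 25.3 and 295 ± 31.1, a 1.69-fold difference (log2 0.76, SE 0.12, limma adjusted p = 2.65e-05). Even so, 16.6% of all genes tested had a log2 fold change at least as high as that of Pecam1.

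Cdh5 (chr8:104101625-104144511) encodes VE-cadherin, the cadherin of endothelial adherens junctions. It had 76.2, 101, 105 and 83.3 normalised counts in young libraries and 57.8, 71.1, 131, 82.1 and 140.0 in old libraries. The old libraries surrounded the young, with 2 above and 2 below all of them. The coefficient of variation was 15.1% in young and 38.2% in old libraries, whereas for Ehd3 it was 5.18% and 7.83%. The log2 fold change of Cdh5 was 0.0048 with a 95% CI of -0.46 to 0.47 (limma adjusted p = 0.987). This interval holds changes of the size seen for Eng, Emcn, Plvap and Tie1 in either direction. The annotated coding transcripts of Cdh5 have 2 ends over 31.49 kb and those of Pecam1 have 4 over 36.87 kb. Each gene has 1 value, so these ends cannot be separated. The log2 ratio of Cdh5 to Pecam1 was -0.93 ± 0.33 in young and -1.68 ± 0.50 in old libraries. This difference of -0.75 did not pass the exact permutation test (p = 0.0635, adjusted p = 0.127), and neither did the ratio of Kdr to Cdh5, with a difference of 0.50 (exact permutation p = 0.143, adjusted p = 0.214).

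Of the surface, diaphragm and trafficking genes, Ehd3 was called and Plvap and Emcn were not. Ehd3 (chr17:73804134-73832094), the gene of the trafficking protein of glomerular endothelium, had 279, 251, 281 and 272 normalised counts in young and 413, 350.0, 360.0, 415 and 399 in old libraries. It was the least variable of the 10 genes within each age, and its old values lay well clear of the young. The means were 271 ± 14.0 and 387 ± 30.3, a 1.43-fold difference (log2 0.51, SE 0.10, limma adjusted p = 0.000239).

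Plvap (chr8:71497765-71511752), which encodes the protein of fenestral and caveolar diaphragms, had 314, 293, 331 and 445 normalised counts in young and 242, 345, 339.7, 256 and 257 in old libraries. Young replicate 4 was the highest of all 9, and 3 of the 5 old libraries lay below the young range. The means were 346 ± 68.1 and 288 ± 50.1, with a log2 fold change of -0.26 (95% CI -0.56 to 0.03, limma adjusted p = 0.111). Without old replicate 2, Plvap was called as lower, at -0.33 (limma adjusted p = 0.0452), whereas the log2 value of Plvap was -0.14 without young replicate 4 (limma adjusted p = 0.420), -0.12 with mitochondrial genes left out and -0.015 with the length trend removed (limma adjusted p = 0.933).

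Emcn (chr3:137341067-137432185), the endomucin gene, had 157, 130.2, 138 and 119 normalised counts in young and 147, 94.1, 152, 119 and 117 in old libraries. The ages overlapped, with 2 of the 5 old libraries below all young ones. The means were 136 ± 16.3 and 126 ± 23.9, with a log2 fold change of -0.12 (95% CI -0.44 to 0.19, limma adjusted p = 0.493). The sign of the Emcn value turned to 0.02 when mitochondrial genes were left out.

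**Figure D2:**
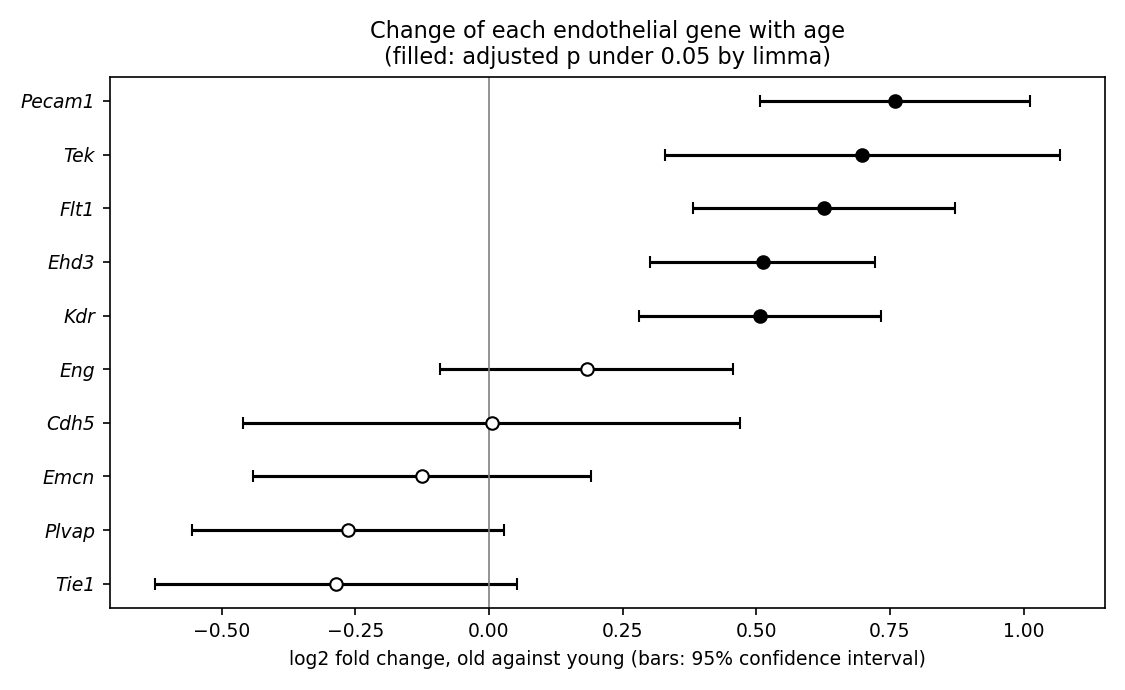
Log2 fold change of old against young kidneys (horizontal axis) for the 10 endothelial genes in order of size, with bars for the 95% confidence interval from limma and filled points for an adjusted p-value under 0.05. Pecam1, Tek, Flt1, Ehd3 and Kdr are filled, from 0.76 down to 0.51, and the intervals of Eng, Cdh5, Emcn, Plvap and Tie1 include 0.

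Ratios between members within a library asked whether they changed unequally, and depend on the size factor only through the 1 added to each count. The ratio of Ehd3 to Plvap, a glomerular against a diaphragm gene, ran from -0.71 to -0.17 on the log2 scale in young and from 0.02 to 0.77 in old libraries. It was higher in all 5 old libraries, by 0.78 or 1.71-fold (exact permutation p = 0.0159, adjusted p = 0.0476 over 6 ratios). The ratio of Emcn to Plvap differed by 0.14 and did not pass (exact permutation p = 0.556, adjusted p = 0.556). Of the 6 ratios, 2 therefore passed, Tek to Tie1 and Ehd3 to Plvap. Each time 1 library was left out, these 2 differences stayed between 0.89 and 1.16 for Tek to Tie1 and between 0.65 and 0.88 for Ehd3 to Plvap. In those smaller designs the smallest p allowed was 0.0286 or 0.0357, so that the adjusted p was 0.0571 to 0.107 and 0 of the 6 ratios passed. A ratio does not show which gene moved. The genes of a ratio differ in transcript length and ends, so a difference in preparation cannot be told apart from unequal change. The ratios were not tested with the length trend removed. Under that setting the log2 fold change was 0.54 for Ehd3 and -0.015 for Plvap, against 0.51 and -0.26 in the main fit. For Tek and Tie1 it was 0.58 and -0.34, against 0.70 and -0.29.

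**Figure D3:**
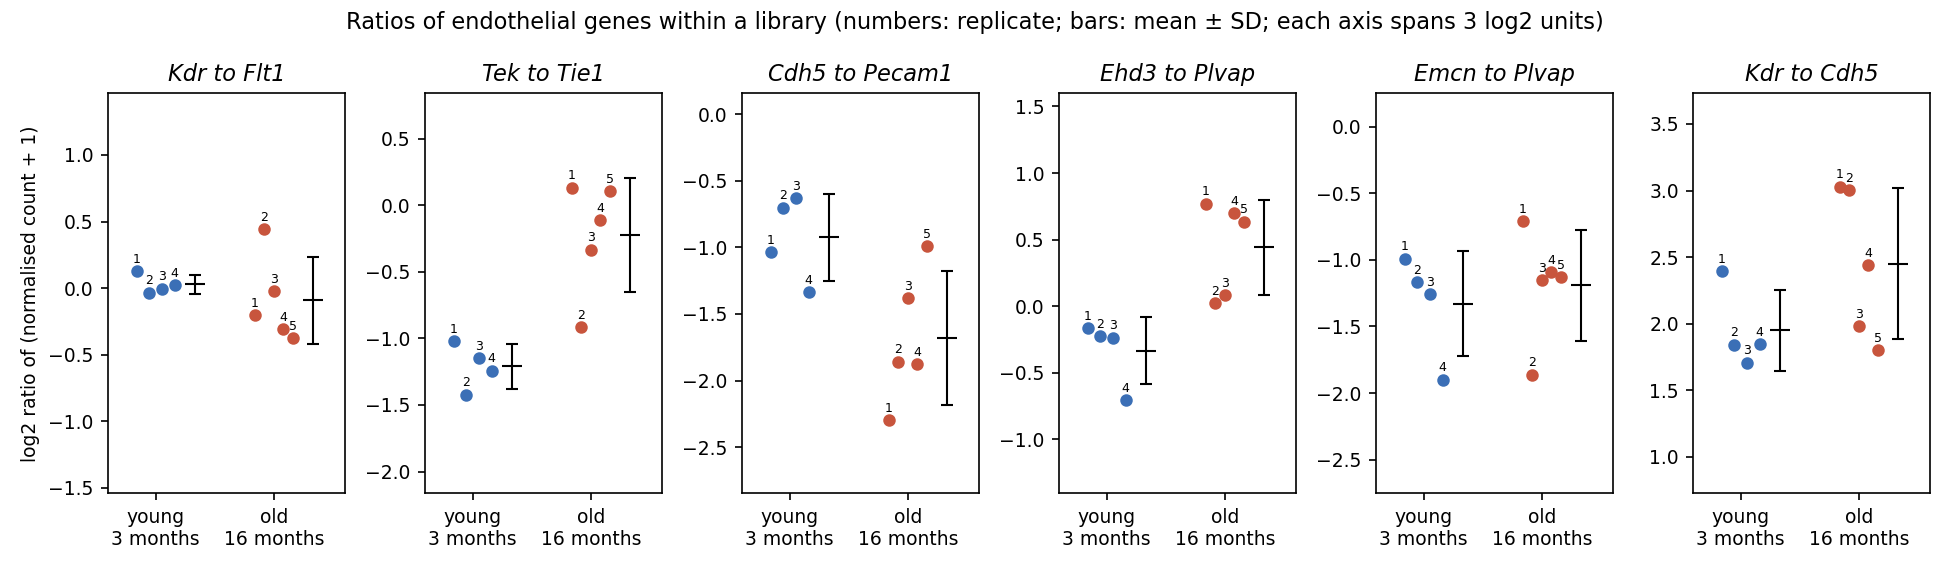
Log2 ratio of the normalised counts, each with 1 added, of 2 endothelial genes within a library (vertical axis, each panel spanning the same number of log2 units) in 4 young and 5 old kidney libraries, labelled with the replicate number, with bars for the mean ± SD. The ages do not overlap for Tek to Tie1 and Ehd3 to Plvap, and overlap for Kdr to Flt1, Cdh5 to Pecam1, Emcn to Plvap and Kdr to Cdh5.

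The members did not move as 1 block among the libraries of an age. Young replicate 4 was the highest young library for 5 of the 10 genes and the lowest for 3. Old replicate 2 was the lowest old library for 6 genes and the highest for 3, namely Kdr, Tie1 and Plvap. Summed over the 10 genes, the share of reads was 0.0398% to 0.0432% in young and 0.0472% to 0.0568% in old libraries, without overlap. The gene nearest to the mean centred profile of the 10, by root mean square difference over the 9 libraries on the log2 scale, was Eng and, next to it, Ehd3, each at 0.171, and the farthest were Cdh5 at 0.351, Plvap at 0.344 and Tie1 at 0.341. Among 8141 other genes whose mean reached 50 normalised counts, those nearest to that profile were Capns1 (0.0713), Mmgt1 (0.0721), Vcp (0.0766), Mia2 (0.0786) and Rpl3 (0.0794). These values describe likeness over 9 libraries that share their ages and size factors.

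The ligands and co-receptors around Kdr and Flt1 moved in both directions, with 3 of 7 tested genes higher, 1 lower and 3 not called, and a median log2 fold change of 0.15. Vegfa, the main ligand of both receptors, rose from 369 ± 15.7 to 868 ± 166 normalised counts (log2 1.21, SE 0.12, limma adjusted p = 1.24e-07). The lowest old library, at 688, was well above the highest young one, at 387. The co-receptor gene Nrp1 fell from 627 ± 90.1 to 441 ± 60.1 (log2 -0.50, limma adjusted p = 0.00104). Its relative Nrp2 and the Flt1 ligand gene Vegfb were higher, at log2 0.46 and 0.31. These last calls moved with the processing. With scaling to the table total the adjusted p by limma was 0.0892 for Nrp2 and 0.0525 for Vegfb. With the length trend removed, Nrp2 was at log2 0.13 (limma adjusted p = 0.551), whereas Vegfb was called at 0.66 (limma adjusted p = 6.32e-05). Nrp2 also lost its call without young replicate 1, 3 or 4 or without old replicate 1, 3 or 5 (log2 0.31 to 0.50), and Vegfb without young replicate 4 or without old replicate 1 or 4 (log2 0.24 to 0.27).

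Around Tek and Tie1, 3 of 6 tested genes were higher and 2 lower, with a median of 0.09. Angpt1, the ligand that activates Tie2, rose from 32.9 ± 12.2 to 88.8 ± 7.11 normalised counts (log2 1.47, SE 0.21, limma adjusted p = 8.11e-06), with no overlap. Ptprb, which encodes the phosphatase VE-PTP that acts on Tie2 and VE-cadherin, rose from 203 ± 27.6 to 363 ± 42.6 (log2 0.83, SE 0.12, limma adjusted p = 7.49e-06). With the length trend removed, the value of Ptprb was 0.24 (limma adjusted p = 0.0730). The angiopoietin-like genes Angptl4, whose product inhibits lipoprotein lipase, and Angptl2 were lower, at log2 -1.18 and -0.74, and their products do not act through Tie2. Angpt2, the ligand that can oppose Angpt1, had means of 11.05 and 5.90 normalised counts and was below the filter.

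Among 17 tested partners of the endothelial junction, 4 were higher and 7 lower, with a median of -0.29. The largest falls were those of Ctnnd1, Rap1a, Jup and Jam3, whose products are p120-catenin, a small GTPase that strengthens VE-cadherin junctions, plakoglobin and a junctional adhesion molecule. Ctnnd1 went from 454 ± 14.0 to 16.5 ± 10.8 normalised counts (log2 -4.88, SE 0.27, limma adjusted p = 4.50e-11), and Rap1a from 259 ± 7.32 to 93.2 ± 6.36. Jup went from 410 ± 15.8 to 170.5 ± 51.2, and Jam3 from 122 ± 8.52 to 63.3 ± 11.04, each without overlap. The called rises included Ctnna1, the gene of alpha-catenin in the same complex, from 359 ± 30.8 to 668 ± 9.24 (log2 0.90, limma adjusted p = 1.37e-07), and the adhesion genes Cd34 (log2 0.72) and Vcam1 (log2 0.67). Ctnnb1, the gene of beta-catenin in that complex, was lower, from 960.5 ± 38.9 to 574 ± 57.5 without overlap (log2 -0.75, limma adjusted p = 1.95e-06). Epithelial cells of the tubule also use p120-catenin and plakoglobin, and these counts do not tell the cell types apart.

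Of 15 tested partners of endoglin, 4 were higher and 6 lower, with a median of 0.05. Acvrl1, the endothelial type I receptor ALK1 that pairs with endoglin, rose from 37.7 ± 7.25 to 84.3 ± 10.95 normalised counts (log2 1.149, SE 0.18, limma adjusted p = 1.84e-05). The ligand genes Bmp4 and Bmp6 fell, from 745 ± 23.3 to 205 ± 53.2 and from 170.1 ± 36.3 to 78.4 ± 19.0. Id3, a transcriptional target of BMP signalling, fell from 520 ± 96.8 to 128 ± 47.1 (log2 -2.07, SE 0.20, limma adjusted p = 8.09e-08). Of its relatives, Id2, a target of the same pathway, was higher (3777 ± 861 and 5317 ± 1110, log2 0.50, limma adjusted p = 0.00886), but was not called without young replicate 4 (0.35). Id1, at log2 0.21, was not called except with the length trend removed (0.58).

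Transcription factors active in endothelium had 10 of 19 tested genes higher and 5 lower, with a median of 0.39. Ets2 rose from 183 ± 30.1 to 457 ± 84.5 normalised counts and its relative Ets1 from 81.1 ± 7.85 to 146 ± 13.4, both without overlap (log2 1.31 and 0.84). Mef2c, a MADS-box factor of vascular development, rose by 0.70 on the log2 scale, and Foxc1, a forkhead factor, was lower at -0.96. In the Notch and ephrin list, 2 of 11 tested genes were higher and 3 lower, with a median of 0.01. The receptor gene Notch1 rose from 55.9 ± 15.2 to 149 ± 27.8, while the Notch target Hes1 fell from 313 ± 24.8 to 86.4 ± 16.2. With the length trend removed, Notch1 at log2 0.92 and Mef2c at 0.41 were still called. Efnb2, an arterial ligand, was higher (log2 0.87) and its venous receptor gene Ephb4 lower (log2 -1.17).

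Vessel segments were compared through short lists. For glomerular endothelium, 1 of 6 tested genes was higher and 3 lower, with a median of -0.52, and the named falls were those of Lpl, lipoprotein lipase, from 3424 ± 633 to 1152 ± 304, and Plat, tissue plasminogen activator, from 103 ± 21.8 to 59.6 ± 13.5. Lpl is also made by other kidney cells and fat, and Ehd3, of the same segment, rose. For veins and ascending vasa recta, 2 of 5 were higher and 3 lower. Gas6, a ligand of TAM receptors, fell from 1253 ± 59.8 to 473 ± 71.2, and Nr2f2, the venous identity factor that interstitial cells also make, rose from 1789 ± 177 to 2465 ± 118. For arteries, 2 of 8 were higher and 2 lower, with Fbln5, a gene of elastic fibres, higher (log2 0.59) and Sox17, an arterial factor, lower (log2 -0.67). For descending vasa recta, 2 of 4 were higher (Aqp1 and Slc5a3, both also tubular genes), and for lymphatics 2 of 4 were higher, with Prox1, the lymphatic master regulator, at log2 0.59 (limma adjusted p = 0.0311). Prox1 lost its call with the length trend removed (log2 0.18, adjusted p by limma 0.500), with scaling to the table total (adjusted p by limma 0.0664) and without young replicate 1 or 2 or old replicate 3, where its log2 value was 0.52, 0.60 and 0.35. Slc5a3 also lost its call with the length trend removed, at log2 0.24 against 0.80 (limma adjusted p = 0.0853), while Fbln5 at 0.34 and Aqp1 at 0.51 kept theirs. The defining markers Gata5, Gja5, Ackr1, Vwf, Slc14a1 and Lyve1 of these segments were not analysed here, since the table gives no row for them.

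A wider list of other genes known from endothelium had 13 of 44 tested genes higher and 16 lower, with a median of -0.19. Igfbp3, a binding protein for insulin-like growth factors, fell from 675 ± 26.2 to 184 ± 30.3 normalised counts, and Ace, angiotensin-converting enzyme, from 347 ± 30.6 to 115 ± 18.6. She, an adaptor protein gene, rose from 45.7 ± 7.55 to 120.3 ± 29.6, and Ramp2, the partner of the adrenomedullin receptor, from 61.2 ± 15.7 to 139 ± 24.4. Over all the vascular lists taken once each, 43 of 130 tested genes were higher and 42 lower, so 65.4% were called, beside 59.7% of all genes, and their median log2 fold change was 0.02. The upward direction of the called genes among the 10 members was thus not that of the vascular lists as a whole, a description for which no test was made.

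**Figure D4:**
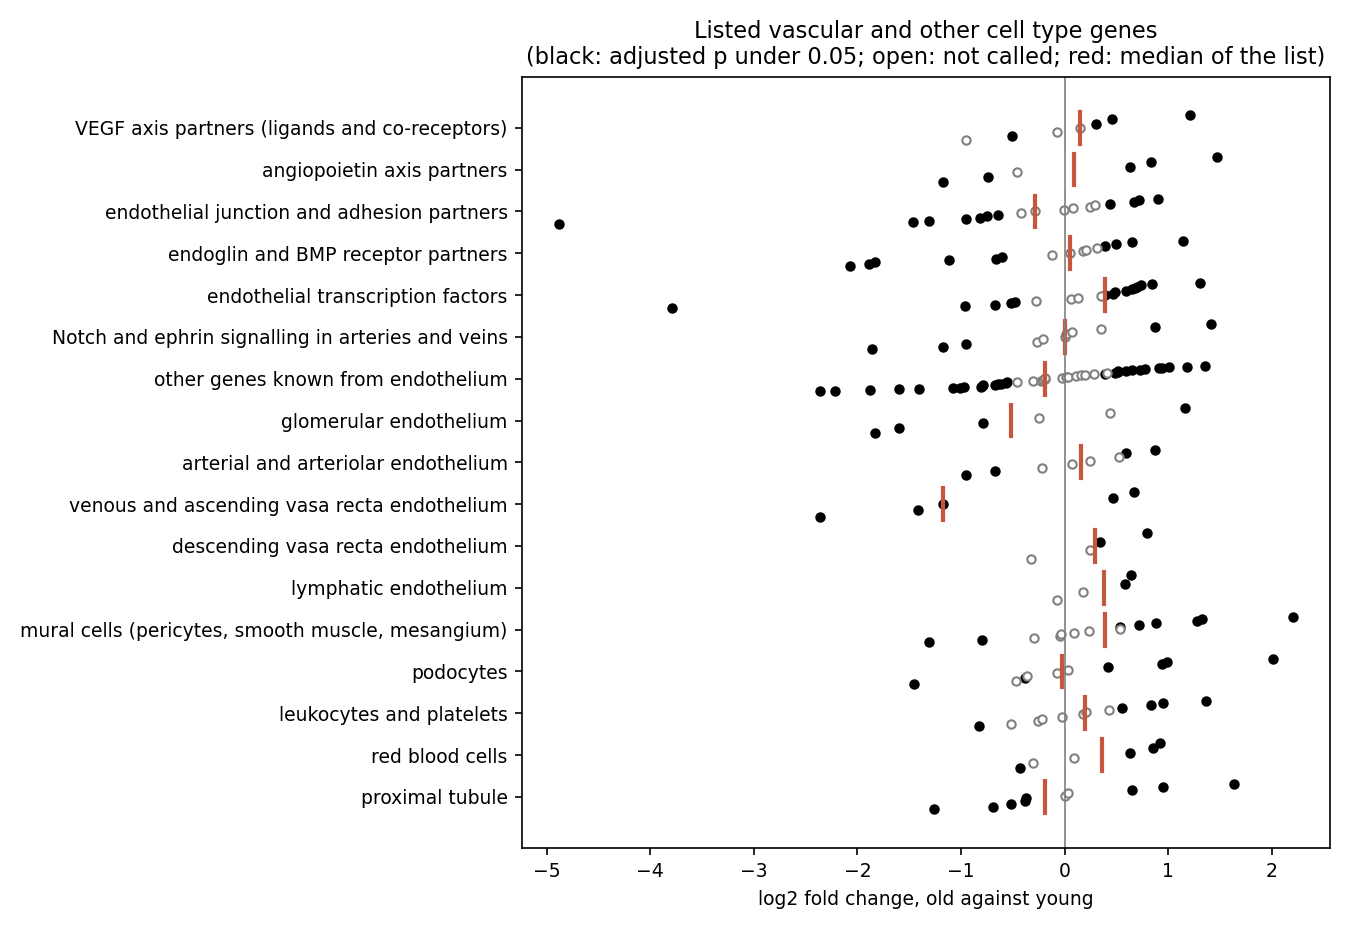
Log2 fold change of old against young kidneys (horizontal axis) for every tested gene of 17 gene lists (rows), with black points for an adjusted p-value under 0.05 by limma, open points for genes not called and a red bar for the median of the list. The adipocyte list, with 3 tested genes and a median of 2.10, is not drawn. Calls lie on both sides of 0 in most lists drawn, with medians from -1.17 in the venous list to 0.39 in the lists of transcription factors and mural cells.

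Markers of other cell types in the same tissue also moved with age, and their part in the results for the 10 genes was not tested. Of 14 tested genes of mural cells, the pericytes and smooth muscle around vessels, 6 were higher and 2 lower, and the summed list ran from 962 to 1218 normalised counts in young and from 1505 to 1958 in old libraries. Tagln, a smooth muscle gene, rose from 85.7 ± 18.0 to 393 ± 36.3, whereas Acta2 had 221 ± 36.7 and 243 ± 77.6 and was not called. Podocyte genes had 4 of 10 higher and 2 lower, with sums of 1153 to 1236 in young and 1225 to 1385 in old libraries, and Synpo was higher (log2 0.99) while Podxl, which endothelium also expresses, was lower (log2 -1.45). Leukocyte and platelet genes, relevant to Pecam1, had 4 of 12 higher and 1 lower, with sums of 753 to 798 in young and 814 to 960 in old libraries. Ptprc, the pan-leukocyte gene of that list, had means of 31.3 and 81.1 normalised counts, the platelet gene Itga2b 30.4 and 55.2, and the platelet gene Pf4 21.4 and 18.3. C1qa was higher (log2 0.56, and 0.95 with the length trend removed), and Csf1r, at log2 0.18, was not called. Red cell genes had 3 of 6 higher and 1 lower, with sums of 13593 to 19464 in young and 12582 to 30512 in old libraries, Hba-a2 being higher (log2 0.86) and Hbb-bs not called (log2 0.09), although with the length trend removed Hbb-bs was called at 0.50 (limma adjusted p = 0.0145). Proximal tubule genes had 3 of 10 higher and 5 lower, with sums of 190330 to 222650 in young and 130300 to 182290 in old libraries, without overlap. The larger part of these sums was Kap, with means of 159720 and 99735, and Kap was called lower (log2 -0.69). With the length trend removed, Kap was at -0.28 and not called (limma adjusted p = 0.138).

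Adipocyte genes differed between libraries of the same age. The sum of 5 adipocyte genes was 4.09, 574, 45.1 and 5.43 normalised counts in young and 304, 29.5, 775, 5.60 and 104 in old libraries, and Adipoq, the adiponectin gene, was at 0 in young replicate 4. The 3 tested genes (Adipoq, Cidec and Cfd) were not called by limma, Adipoq being at log2 2.36 (SE 1.07, unadjusted p = 0.0400, adjusted p = 0.0646). edgeR gave Adipoq an adjusted p of 0.0358 and DESeq2 one of 0.210, and limma called it at 2.70 with the length trend removed (adjusted p = 0.0400), at 3.47 without young replicate 2 and at 3.22 without old replicate 4. Without old replicate 3, Adipoq was at 1.57 and not called. Young replicate 2 and old replicate 3 had the highest sums of their ages. With 1 or the other left out, 5 of the 10 endothelial genes were higher and 0 lower, as with all libraries. Old replicate 1, with a sum of 304, remained each time, and a part of fat in the endothelial values was not tested.

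The 5 calls held under most other ways of handling the data. Over the alternatives in which each was tested, Pecam1, Flt1 and Ehd3 were called under 20 of 20, Tek under 19 of 19 and Kdr under 19 of 20. Cdh5 and Tie1 were called under 0 of 19, Emcn under 0 of 20, and Plvap and Eng under 1 of 20 each. The log2 fold change ran from 0.70 to 0.90 for Pecam1, from 0.58 to 0.84 for Tek, from 0.46 to 0.65 for Ehd3, from 0.29 to 0.77 for Flt1 and from 0.25 to 0.65 for Kdr.

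**Figure D5:**
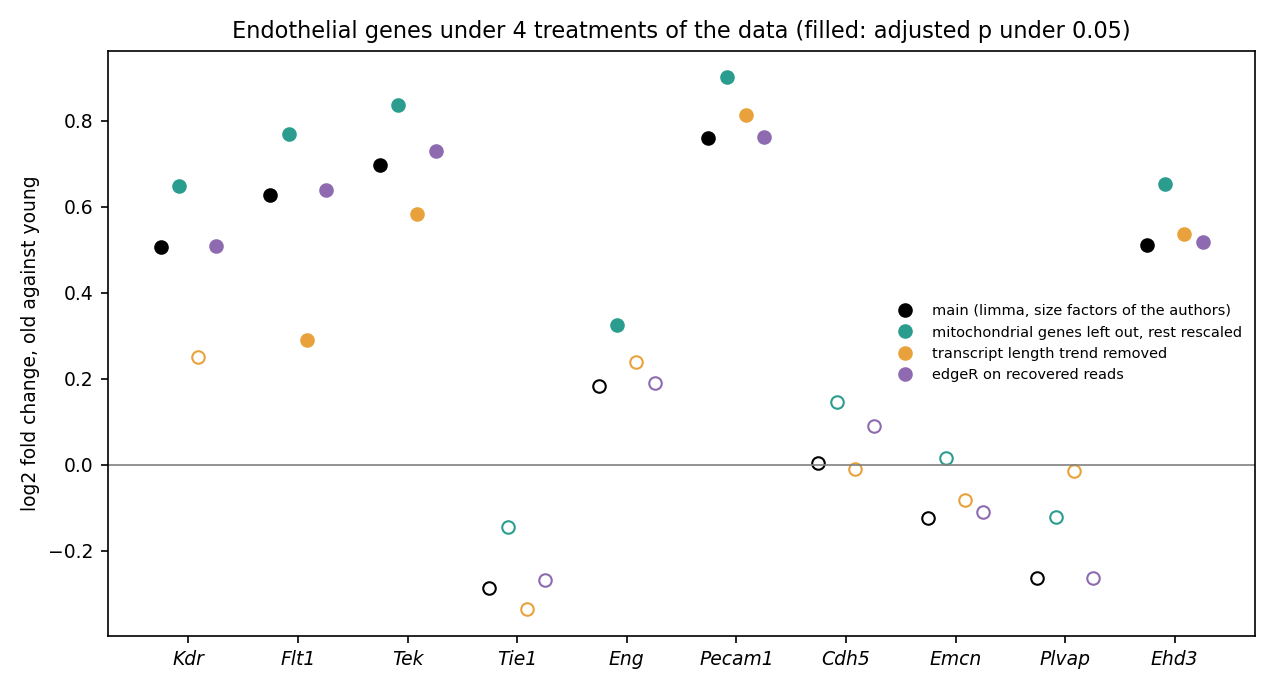
Log2 fold change of old against young kidneys (vertical axis) for the 10 endothelial genes (horizontal axis) under 4 treatments of the data, namely limma with the size factors of the authors, limma after removal of mitochondrial genes and rescaling, limma with a transcript length trend removed, and edgeR on recovered reads, with filled points for an adjusted p-value under 0.05. Removing the length trend lowers Kdr to 0.25 and Flt1 to 0.29, and leaving out mitochondrial genes lifts all 10 genes.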

How the data were processed

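The deposited table holds read counts per gene divided by a size factor per library, a signal on the scale of counts, which the authors made by aligning reads to GRCm39 with TopHat2 2.0.10 and Bowtie 1.0.0, counting them by strand with HTSeq 0.6.1 on GENCODE vM26, and normalising with DESeq. Libraries were made from transcript 3′ ends with oligo(dT) priming, so reads mark the ends of transcripts and isoforms with a shared end cannot be separated. The labels and the paper name different versions of the library kit. Whole reads were recovered, with 100% of values being whole multiples of 1 read within a relative tolerance of 1e-06. A count of 3 reads was taken as the floor, and such limits cover counting error only. No gene in the table had a mean under 4.49 normalised counts, so scarcer genes were removed before deposit by a rule not given in the sources used here.

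Groups follow the age in the labels, and replicate numbers follow listing order. The test was limma 3.58.1 (lmFit, eBayes with trend, R 4.3.3) on log2(normalised count + 1), for genes that reached 10 normalised counts in 4 or more libraries, adjusted by Benjamini-Hochberg over all genes tested at a threshold of 0.05. Fold changes on this scale understate those of low genes. On the recovered reads edgeR 4.0.16 (quasi-likelihood) called 7649 genes and DESeq2 1.42.0 called 7532. Log2 ratios of (normalised count + 1) were compared by exact permutation tests. The limma test was tried on simulated counts, in which far fewer genes changed than were called here. That trial did not cover edgeR, DESeq2, the removal of the length trend or the ratios.

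The members and gene lists were chosen with earlier results of these data known. Named genes were the 10 members, up to 4 called genes per vascular list with the largest change at a mean of at least 50 normalised counts, the 2 most abundant genes of each list of other cell types, and the 5 nearest profiles. Ptprc, Itga2b, Pf4, Cidec, Ctnna1, Ctnnb1, Cd34, Id1, Id2 and Angpt2 were named in addition, after their values were seen. Positions were matched by symbol to GENCODE vM21 (GRCm38), an older build than that of the authors. For all 10 members, 0% of the 50-base sequences in the last 500 bases of their transcripts occurred in another gene. RefSeq held no upstream sequence for Pecam1, Cdh5 and Plvap in the table used here, that of Ehd3 lay in exons, and those of Emcn and Tie1 are not shown.

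Alternatives were pseudocounts of 0.1 and 5, no filter, a mean of at least 100, TMM factors, scaling to the table total, leaving out mitochondrial genes, robust eBayes, edgeR, DESeq2, removal of a transcript length trend, and leaving out each library.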

Additional observations from a re-analysis of the deposited data

Results flagged for a closer look

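Young replicate 4 stood apart from the other 3 young libraries in 2 values. Its Pecam1 level was 7.73 on the log2 scale, against 7.31 to 7.38 in the others, and its log2 ratio of Ehd3 to Plvap was -0.71, against -0.24 to -0.17. In both, the gap to the nearest other library took a larger part of the range of the group (0.835 and 0.874) than Dixon's critical value of 0.829 for 4 samples. Of 34 groups tested, 2 were marked in this way, and chance gives about 1 in 20, or 1.7. Without young replicate 4, Pecam1 was still called and the ratio differed by 0.65.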

How the results depend on the processing

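Counts of the 10 endothelial genes called, and called as higher, stayed within 1.5 times of 5 under all 20 alternatives. Over all genes, 7568 were called, and 4101 with a minimum mean of 100, where fewer genes were tested. The count of members lower was 0 to 1 when a library was left out (Plvap, without old replicate 2). The median over the members, 0.34, was 0.51 with that minimum mean (7 members tested), 0.49 with mitochondrial genes left out and 0.24 with the length trend removed. Leaving out mitochondrial genes moved the median of all genes to 0.13, so that the members lay 0.35 above it in both cases, and the split of all calls from 3704 higher and 3864 lower to 4472 and 3173. The number of ratios past the threshold, 2 with all libraries, was 0 whenever a library was left out, where both differences were at the smallest p allowed (0.0286 or 0.0357). Among the members and their ratios, values not called by the test changed sign as follows. Cdh5 was -0.048 with scaling to the table total, -0.011 with the length trend removed, and -0.150 to 0.166 with a library left out. Emcn was 0.016 with mitochondrial genes left out, and the ratio of Emcn to Plvap differed by -0.052 to 0.307 with a library left out. Kdr lost its call with the length trend removed (0.25), and Eng gained one with mitochondrial genes left out (0.32). The cause was not tested. No paired analysis was possible because the replicate numbers are only an order of listing. With 41 to 601 reads per member and library, counting error limits the precision, and so does the spread between libraries, which was wider for Cdh5 than for Tek, the gene with the fewest reads. The 95% CI of the log2 fold change was widest for Cdh5 (-0.46 to 0.47).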
